A study of Sus scrofa with 14 samples.

Results

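The comparison set jejunum segments perfused with an onion digest against segments of the same pigs perfused with a saline digest, and asked what both onions share in the pig mucosa. All 14 arrays of the series entered it, 7 of onion segments and 7 of saline digest segments, chosen by their labels and paired within pig. In the small intestinal segment perfusion (SISP) model, male piglets of 5 weeks lay under anaesthesia while segments at 31 to 58% of the length of the small intestine, each with its blood supply intact, were filled with 20 ml of a digest and perfused for 6 h. Mucosal scrapings of each segment were then put on 1-colour Agilent arrays.

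The saline digest (Sd) group was 7 segments of pigs 1, 2, 4, 5, 6, 7 and 8, filled with saline that had gone through the same in vitro digestion without onion. The yellow onion digest (YOd) group was 3 segments of pigs 1, 2 and 4, and the white onion digest (WOd) group was 4 segments of pigs 5, 6, 7 and 8. Pig 3 was not analysed here. No pig received both onions, so the kind of onion and the set of pigs cannot be told apart. Per the methods, the onion digests were diluted in peptone and the Sd digest, more strongly, in saline solution, so onion and diluent cannot be told apart either. The segments of a pair lay next to each other, but the labels do not say which of them was nearer the stomach. Scrapings are bulk tissue, in which fewer cells of a type and less RNA per cell cannot be told apart.

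Onions carry quercetin glycosides and sulfur compounds. Electrophiles and oxidants free the transcription factor NRF2 from its inhibitor KEAP1, and NRF2 then raises enzymes that reduce, conjugate and export reactive compounds, such as aldo-keto reductases and NAD(P)H quinone dehydrogenase. The epithelium also changes along the gut: motilin, ghrelin, the factor PDX1 and folate uptake mark its upper end, and ileal bile acid uptake and L-cell peptides its lower end.

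The arrays of pigs 2 and 7 stood apart. Their Sd arrays were read on another slide and in a later scan than their onion arrays, while in the other 5 pigs both arrays shared a slide. Each of the 14 arrays was still closest to the other array of its own pig, with r = 0.702 in pig 2, the highest, and 0.264 in pig 7, the lowest. Probes that differed over 1.5-fold within the pair made up 5.23% of those tested in pig 2 and 25.9% in pig 7, against 14.2 to 22.2% in the other pigs. Results are therefore given over 7 pigs and over the 5 pigs with both arrays on 1 slide (pigs 1, 4, 5, 6 and 8). On every array between 50.6 and 70.7% of the probes were well above background. Of the tested probes 454 were saturated on all 14 arrays, and what is left of a difference there is the scaling of the arrays, with a median log2 ratio of 0.63 in pig 4 and -0.08 in pig 5.

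Over 7 pigs, 223 of 26013 probes (0.857%) passed both thresholds of the study, a limma p of less than 0.05 before adjustment and a change of more than 1.5-fold. Such probes are referred to as called, and so is a gene whose probe of highest mean passed. Of these probes 153 (0.588%) were higher and 70 (0.269%) lower with onion. Adjusted for multiple testing by Benjamini-Hochberg, 0 probes had a limma p below 0.05 (smallest 0.833), while 1412 probes (5.43%) had an unadjusted p under that value. Only 67 of the called probes could be given a gene symbol. With 1 probe a gene, 30 of 2453 measured genes (1.22%) were called, 23 higher (0.938%) and 7 lower (0.285%), each with an adjusted p of 0.860. A log2 fold change here is the onion segment minus the Sd segment, given ± its standard error from the fit, a ratio is that difference within 1 pig, and a level is a log2 signal relative to the 75th percentile of its array. The median log2 fold change was 0.04 over all tested probes and 0.08 over all measured genes, so values near these mark no shift. Without scaling between arrays the median of all probes was -0.11, and of 220 called probes 35 were higher and 185 lower, so the split into higher and lower calls changed with the scaling.

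Within the 5 pigs on 1 slide, 557 of 26013 probes (2.14%) were called, and 80 of the 2453 genes (3.26%), 55 higher (2.24%) and 25 lower (1.02%). There, 8 probes had an adjusted limma p below 0.05: 3 of AKR1C1, 1 of LOC733635, 3 of NQO1 and 1 of PDX1. Of the 30 genes called over 7 pigs, 27 were called there too, and CLDN6, MMP3 and TDRD10 were not. The 2 sets share 5 pigs, so the smaller one is no second experiment.

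**Figure D1:**
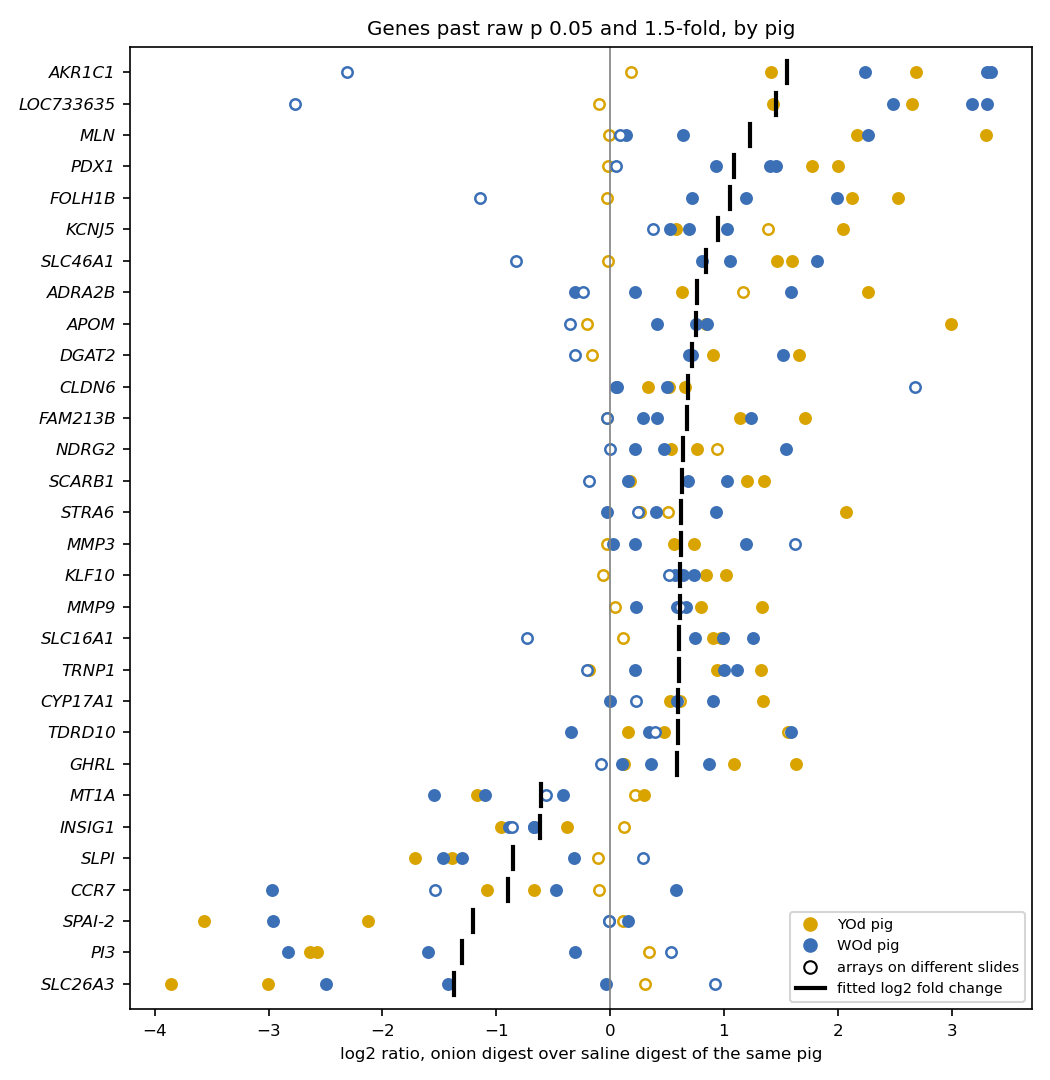
The 30 genes called over 7 pigs, 1 gene a row, with the log2 ratio of onion over saline digest of each pig on the horizontal axis (yellow, YOd pigs; blue, WOd pigs; open, pigs 2 and 7 with arrays on different slides; bar, fitted log2 fold change). In AKR1C1 pig 7 stands at -2.31 against 1.41 to 3.35 in the pigs on 1 slide.

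Both AKR1C genes, aldo-keto reductases, had the largest log2 fold changes of the called genes. Aldo-keto reductases reduce aldehydes and ketones with NADPH, and the AKR1C genes are known NRF2 targets. The lowest, median and highest level of AKR1C1 was -3.57, -0.061 and 1.15 in the Sd segments and -1.67, 0.77 and 2.98 in the onion segments. The groups overlapped, and the Sd segments alone spanned a range wider than the change. As for every one of the 30 called genes, the comparison is therefore within pigs. Within-pig ratios were 2.69, 1.41, 3.35, 3.31, 2.24 and 0.19 in pigs 1, 4, 5, 6, 8 and 2 respectively, and -2.31 in pig 7, which went the other way. This gave a log2 fold change of 1.55 ± 0.59, and without pig 7 it was 2.20. The call was lost when pig 1, 4, 5, 6 or 8 was left out, with pig 7 kept. All 3 of its measured probes were called (1.43 to 1.69).

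RefSeq gives the symbol AKR1C1 to 2 neighbouring genes, and LOC733635 lies between them. It had a log2 fold change of 1.46 ± 0.64 and the same order of pigs, from -2.76 in pig 7 to 3.31 in pig 5. Near-identical copies can bind 1 probe, so these genes cannot be told apart with certainty. Within the 5 pigs on 1 slide the log2 fold changes were 2.60 for AKR1C1 and 2.61 for LOC733635, with an adjusted p of 0.021 for each in limma.

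NQO1, the quinone reductase often used to read NRF2 activity, was not called over 7 pigs, at 0.70 ± 0.34, although 1 of its 3 measured probes (0.70 to 0.81) was. Its lowest, median and highest level was 0.12, 0.70 and 1.95 in the Sd segments and -0.43, 1.78 and 3.16 in the onion segments. In the 5 pigs on 1 slide the ratio lay between 1.16 and 1.49, a narrow band, while pig 2 had 0.15 and pig 7 -1.65. Within those 5 pigs the log2 fold change was 1.27 with a limma adjusted p of 0.021.

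The NRF2 list held 39 genes, of which 19 were measured. Over 7 pigs 2 were called higher, both AKR1C genes named above, and 0 lower, against 0.938% and 0.285% of all measured genes. The median log2 fold change was 0.26 over the measured members, against 0.08 over all measured genes, and 17 of 19 were above 0, as were 1734 of all 2453 measured genes (70.7%). The heavy and light ferritin chains FTH1 and FTL were saturated on all arrays and give no ratio, and without them the median was 0.28. Of the 17 left, 17 were above 0 in pig 1 and 13 or 14 in pigs 4, 5, 6 and 8, but 7 in pig 2 and 7 in pig 7. Of the 2374 measured genes not saturated on all arrays, 1724 were above 0 in pig 1, 1287 in pig 2, 1410 in pig 7 and 945 to 1600 in the rest. Within the 5 pigs on 1 slide 7 members were called, all higher, against 2.24% of all measured genes called higher in that fit. AKR1C1 and LOC733635, which may share signal, are counted apart in this. Like every list here, this one was chosen with earlier results of these data known, so the count describes it and supports nothing. Among the called members AKR1CL1, a relative of AKR1C1, had a log2 fold change of 1.03 in that fit. The carbonyl reductase CBR1 had 0.75, the prostaglandin reductase PTGR1 0.66 and the epoxide hydrolase EPHX1 0.78. Over 7 pigs the same genes had 0.51 ± 0.30, 0.40 ± 0.20, 0.42 ± 0.18 and 0.28 ± 0.31, and none was called.

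Other members of the list had other patterns over the pigs. The haem oxygenase HMOX1 had a log2 fold change of 0.35 ± 0.17, with 1.37 in pig 4 and at most 0.43 elsewhere. GCLM, a subunit of the enzyme that limits glutathione synthesis, had 0.18 ± 0.16 in a fit without pig 8, where a spot was marked as an outlier. The gastrointestinal glutathione peroxidase GPX2 had a ratio of 1.22 in pig 7, where those of AKR1C1 and NQO1 were below 0, and of -1.06 in pig 4. The aldehyde reductase AKR1A1 had 0.26 ± 0.10, with 11 of its 14 arrays saturated. TXNRD1 and KEAP1 had 0.064 and -0.011.

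**Figure D2:**
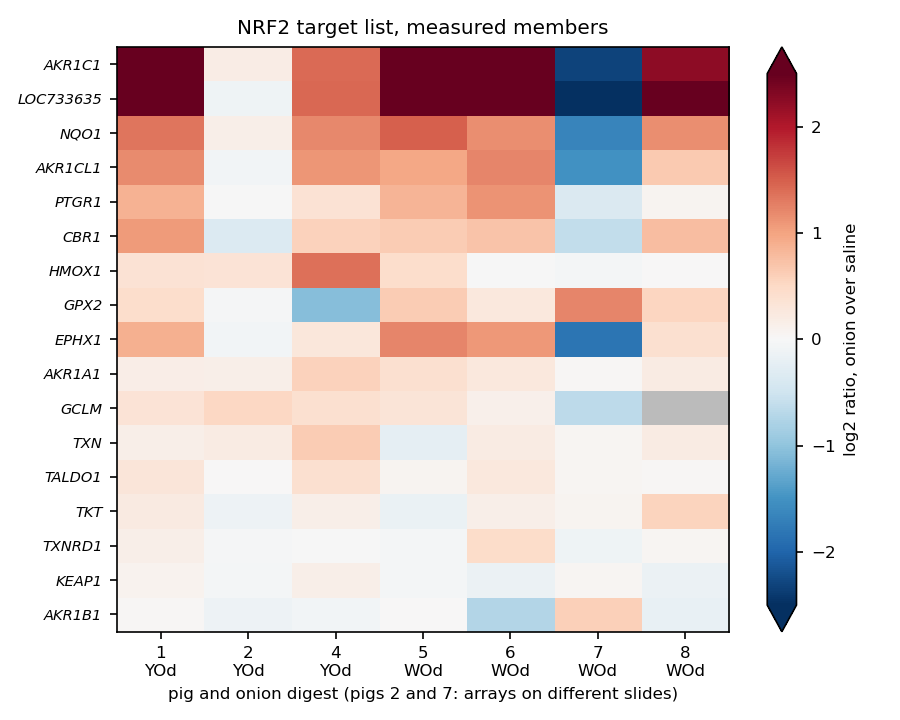
Log2 ratio of onion over saline digest for the 17 measured NRF2 list members that were not saturated, 1 gene a row and 1 pig a column (red higher, blue lower with onion; the grey field is a value left out as an outlier spot). AKR1C1, LOC733635, NQO1, AKR1CL1 and CBR1 are red in pigs 1, 4, 5, 6 and 8, pale in pig 2 except for CBR1 (-0.34), and blue in pig 7.

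Enzymes that neighbour the NRF2 list were called in 0 cases over 7 pigs. Of 12 peroxidases, dismutases and catalase, 11 were above 0, against 70.7% of all measured genes, with a median of 0.21. Catalase, which breaks down hydrogen peroxide, had 0.40 ± 0.18 and ran from -0.40 in pig 7 to 1.04 in pig 4. It was saturated on 1 Sd and 3 onion arrays. Its 9 measured probes ran from -0.045 to 0.53, and 0 were called over 7 pigs. Within the 5 pigs on 1 slide it was called at 0.63, the 1 call of its list, against 2.24% of all measured genes called higher there. SOD1, the cytosolic superoxide dismutase, had 0.27 ± 0.11 with 12 of its 14 arrays saturated, and GPX4, which clears lipid peroxides, had 0.31 ± 0.13. All 6 measured glutathione S-transferases were above 0, but 1 of them was saturated on all arrays. Their median was 0.15, and -0.0027 without scaling between arrays. Of the 5 not saturated on all arrays, 2 were above 0 in pig 2 and 2 in pig 7. MGST3 led with 0.33 ± 0.12 and GSTA1 had 0.30 ± 0.12, both saturated on part of the arrays.

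The cytochrome P450 list had 14 measured members and a median of 0.17. CYP2B22, a drug-metabolising P450, had a log2 fold change of 0.50 ± 0.34 and followed AKR1C1 in direction, highest in pig 4 (2.0) and lowest in pig 7 (-1.67). CYP3A29 had 0.19 ± 0.11, with 9 of its 14 arrays saturated. The conjugation and efflux list, with 5 measured genes, had a median of 0.067, and its efflux pump ABCG2 had 0.28 ± 0.14. CYP17A1, a steroidogenic P450 in none of the lists, was called higher at 0.60 ± 0.16, but was at the floor on 4 Sd arrays.

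Genes of the gut hormone list held the next largest increases. Motilin (MLN), the hormone that drives contractions of the fasting gut, had a lowest, median and highest level of -4.43, -4.05 and -2.04 in the Sd segments and -4.35, -1.78 and -0.49 in the onion segments. On 2 Sd arrays it was at the floor, so those ratios are lower bounds. Within-pig ratios were 3.30, 2.17, 2.26 and 0.64 in pigs 1, 4, 5 and 8 respectively, and between -0.0095 and 0.14 in pigs 2, 6 and 7. The result was a log2 fold change of 1.23 ± 0.39.

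PDX1, a transcription factor of the duodenum and pancreas, had a lowest, median and highest level of -0.68, 0.48 and 2.16 in the Sd segments and -0.70, 2.26 and 3.16 in the onion segments. It was higher with onion in 6 of 7 pigs, by 0.93 to 2.0 in the pigs on 1 slide, and near 0 in pigs 2 (-0.022) and 7 (0.052). The result was a log2 fold change of 1.09 ± 0.25, and 1.51 with an adjusted p of 0.0335 in limma within the 5 pigs. The calls of MLN and PDX1 held with each pig left out in turn.

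Ghrelin (GHRL), an appetite hormone, was called at 0.59 ± 0.20, and it lost the call without pig 1, 4 or 5. Cholecystokinin (CCK), which releases bile and pancreatic enzymes, had 0.51 ± 0.19, just under 1.5-fold. Of the 13 measured members of the list, 3 were called higher and 0 lower, against 0.938% and 0.285% of all measured genes. The median was 0.18. Of the general endocrine granule genes, CHGA had a log2 fold change of 0.012, CHGB of 0.16 and SCG2 of 0.22, and none was called. Proglucagon (GCG), the L-cell precursor, had -0.28 ± 0.20.

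**Figure D3:**
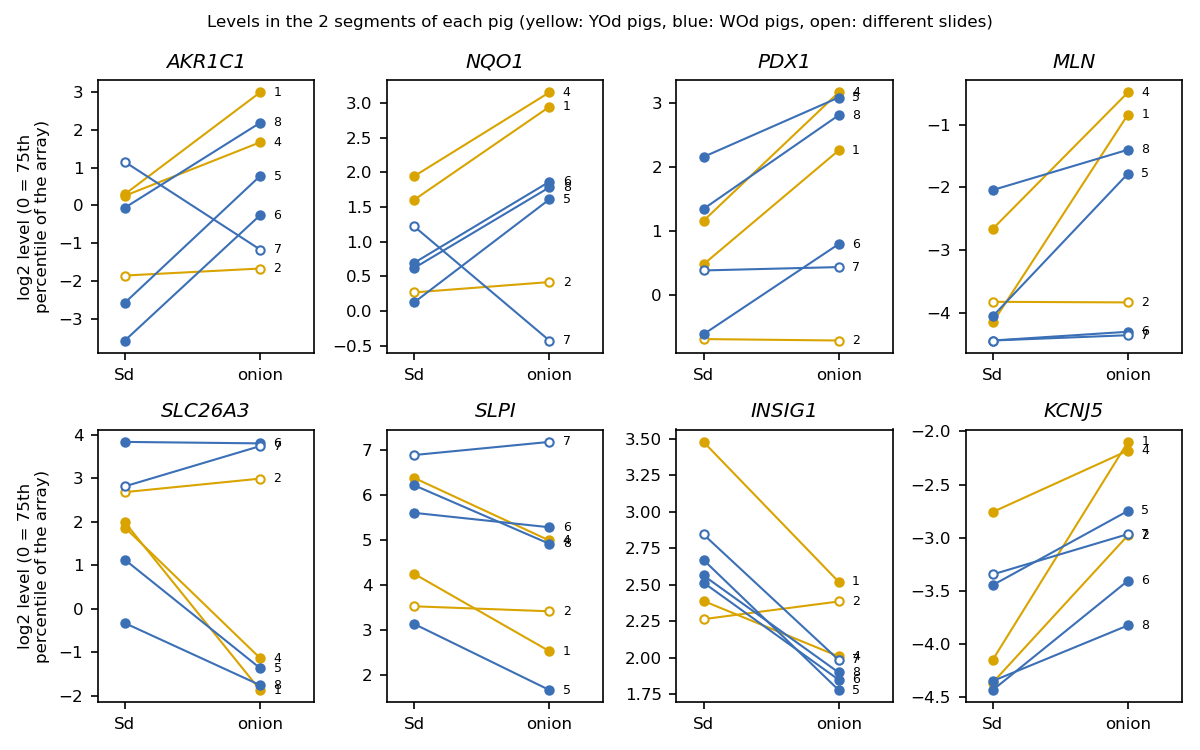
Levels of 8 genes in both segments of each pig, as log2 signal relative to the 75th percentile of the array, with a line per pig and its number at the onion end (yellow, YOd pigs; blue, WOd pigs; open, arrays on different slides). The lines of pigs 1, 4, 5, 6 and 8 run up for AKR1C1, NQO1, PDX1, MLN and KCNJ5 and down for SLPI and INSIG1, while that of pig 7 crosses them in AKR1C1 and NQO1.

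Other genes known for a place along the gut differed in the same pigs. SLC46A1, the proton-coupled folate transporter of the upper small intestine, had a lowest, median and highest level of 3.28, 3.98 and 4.64 in the Sd segments and 2.76, 5.36 and 6.24 in the onion segments. It was higher by 0.81 to 1.82 in the pigs on 1 slide, at -0.016 in pig 2 and at -0.83 in pig 7. The comparison gave a log2 fold change of 0.84 ± 0.29, a call that held with each pig left out. FOLH1B, annotated as a relative of the brush border folate hydrolase, had a log2 fold change of 1.06 ± 0.39, with ratios from -1.14 in pig 7 to 2.53 in pig 1. It was in none of the lists, as were APOM, TRNP1, FAM213B, SPAI-2 and TDRD10, which are named because they were called.

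At the other end, SLC10A2, the ileal bile acid transporter, had a log2 fold change of -0.74 ± 0.35 and was not called. Within-pig ratios were -1.01, -2.57, -1.58, -0.51, -0.69 and 1.18 in pigs 1, 4, 5, 6, 8 and 7 respectively, and it was at the floor on 2 onion arrays. In the 5 pigs on 1 slide it was called lower with -1.27. FABP6, the ileal bile acid binding protein, had no common direction, with 1.53 in pig 5 and -6.04 in pig 6.

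For a view of position, the measured genes with a textbook place were sorted after their values had been seen, so the counts describe them and support nothing. Of 7 upper markers (GATA4, CYBRD1, SLC46A1, PDX1, MLN, GHRL and CCK), 4 were called higher, against 0.938% of all measured genes. The median of these markers was 0.59. Pigs 1, 4, 5 and 7 had 1.60, 1.09, 0.87 and -0.078. The 3 lower markers (SLC10A2, FABP6 and GCG) had a median of -0.47 and 0.87 in pig 7. GATA4 and CYBRD1 stood at 0.025 and -0.016. The list medians of the upper and lower markers were of opposite sign in 6 pigs, the upper above and the lower below 0 in pigs 1, 4, 5, 6 and 8, and the reverse in pig 7. In pig 2 both were near 0. AKR1C1 and NQO1 had ratios above 0 in pigs 1, 4, 5, 6 and 8 and of -2.31 and -1.65 in pig 7. In pig 2 they had 0.19 and 0.15, but the NRF2 list members not saturated had a median of -0.021 there, with 7 of 17 above 0. The part of segment position in the results was not tested.

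Among the genes lower with onion were secreted inhibitors and an anion exchanger. SLC26A3, which exchanges chloride for bicarbonate, had a lowest, median and highest level of -0.33, 1.98 and 3.84 in the Sd segments and -1.87, -1.14 and 3.80 in the onion segments. Within-pig ratios were -3.85, -3.0, -2.49 and -1.43 in pigs 1, 4, 5 and 8 respectively, -0.034 in pig 6 and above 0 in pigs 2 and 7. This gave a log2 fold change of -1.37 ± 0.53. The carbonic anhydrase CA4, which works at the same surface, followed it at -0.68 ± 0.35 and 1.31 in pig 7. SLC26A3 lost its call without pig 1, 4, 5 or 8, and CA4 was called within the 5 pigs on 1 slide (-1.21).

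SLPI, the secretory leukocyte protease inhibitor, had a lowest, median and highest level of 3.13, 5.60 and 6.88 in the Sd segments and 1.67, 4.91 and 7.17 in the onion segments. It was lower in 6 of 7 pigs, down to -1.71 in pig 1, and stood at 0.29 in pig 7. It had a log2 fold change of -0.86 ± 0.24, with 2 arrays saturated, and all 7 of its measured probes were called. PI3, or elafin, an inhibitor of neutrophil elastase, had a log2 fold change of -1.30 ± 0.43, and both calls held with each pig left out. SPAI-2, a pig relative of PI3, was called at -1.20 ± 0.48, with ratios of -3.57, -2.13 and -2.96 in pigs 1, 4 and 5 respectively. In pigs 2, 6, 7 and 8 its ratios were 0.11, -0.0061, -0.013 and 0.16 respectively, and 9 of its 14 arrays were saturated. These related genes may share signal on the arrays.

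Of the secreted defence list's 19 measured members, 2 were called lower and 0 higher, against 0.285% and 0.938% of all measured genes. The median was 0.15. The beta-defensin DEFB1 had -0.43 ± 0.22, with -1.56 in pig 6 and 0.75 in pig 7.

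INSIG1, SQLE and MSMO1, genes of sterol synthesis, had ratios below 0 in the same 6 pigs, pig 7 included, and not only in the pigs on 1 slide. Such genes are driven by SREBP2 when cholesterol in the cell is low. INSIG1, which holds SREBP in the endoplasmic reticulum and is itself its target, had a lowest, median and highest level of 2.26, 2.56 and 3.48 in the Sd segments and 1.78, 1.98 and 2.52 in the onion segments. Its ratio lay between -0.96 and -0.38 in 6 pigs, with -0.86 in pig 7, and was 0.12 in pig 2. It was called at -0.61 ± 0.14, and 1 of its 2 measured probes had -0.12.

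Squalene epoxidase SQLE had a log2 fold change of -0.53 ± 0.14 and the methylsterol oxidase MSMO1 a log2 fold change of -0.41 ± 0.12. The probes that stand for them were under 1.5-fold, so the genes were not called, but 2 of the 3 measured probes of SQLE (down to -0.61) and 1 of the 3 of MSMO1 (-0.69) were called. In pig 7 they stood at -1.05 and -0.53, and in pig 2 at 0.0045 and -0.0089. Of the 20 measured members of the list 1 was called lower, against 0.285% of all measured genes. Below 0 were 15 of them, as were 719 of all 2453 measured genes. The median was -0.12, or -0.021 without pig 4 and -0.058 without pig 1. The fatty acid side stayed nearer 0, with FASN at -0.13, ACACA at -0.14, ACLY at -0.013 and the regulator SREBF1 at -0.035.

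Fat uptake and lipoprotein genes gave 2 calls, both higher, among 17 measured, against 0.938% of all measured genes called higher. The list median was 0.16. SCARB1, a scavenger receptor that takes up cholesterol and carotenoids, had a lowest, median and highest level of 4.41, 6.17 and 6.68 in the Sd segments and 5.10, 6.80 and 7.38 in the onion segments and a log2 fold change of 0.63 ± 0.19, with 6 of its 14 arrays saturated. DGAT2, which makes triglycerides, had a log2 fold change of 0.72 ± 0.24, from -0.31 in pig 7 to 1.66 in pig 4. APOM, an apolipoprotein of HDL, was called at 0.76 ± 0.33, but without pig 4 its value was 0.38. The list without its 4 saturated members had a median of 0.21.

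Vitamin genes other than SLC46A1 gave 1 further call among 18 measured, where 1.22% of all measured genes were called. STRA6, a membrane receptor for retinol transport, had a log2 fold change of 0.63 ± 0.22, and 0.39 without pig 1. BCO1, which cleaves beta-carotene to retinal, had 0.53 ± 0.38, with 1.73 in pig 5 and -1.98 in pig 7. The metallothionein MT1A, a zinc-binding protein, was called lower at -0.61 ± 0.22, from -1.55 in pig 8 to 0.30 in pig 4. Of the other 4 measured genes of its list 0 were called, and SLC30A4 had -0.17 ± 0.12. SLC16A1, a transporter of lactate and other monocarboxylates, was called higher at 0.61 ± 0.22, above 0 in every pig but pig 7 (-0.73).

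Of the matrix metalloproteinases, which cut extracellular matrix, MMP9 and MMP3 were called higher. MMP9 had a lowest, median and highest level of 1.31, 2.24 and 3.40 in the Sd segments and 1.97, 2.47 and 3.98 in the onion segments and was above 0 in all 7 pigs, from 0.044 in pig 2 to 1.33 in pig 4. It had a log2 fold change of 0.61 ± 0.15. MMP3 had a log2 fold change of 0.62 ± 0.20, with 1.62 in pig 7 as its highest ratio and 0.45 without that pig. MMP1 had 0.46 ± 0.14, just under 1.5-fold. Of 13 measured members 2 were called higher and 0 lower, against 0.938% and 0.285% of all measured genes. The median was 0.19, 7 were above 0 in pig 7, and the inhibitors TIMP1 and TIMP2 had 0.044 and 0.11.

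KCNJ5, a potassium channel gated by G proteins, had the smallest p before adjustment among the called genes. Its lowest, median and highest level was -4.43, -4.15 and -2.76 in the Sd segments and -3.82, -2.97 and -2.10 in the onion segments, low on the array, with 6 of 7 Sd arrays and 7 of 7 onion arrays well above background. It was higher in all 7 pigs, from 0.38 in pig 7 to 2.05 in pig 1, and had a log2 fold change of 0.95 ± 0.19. AQP5, a water channel, was also above 0 in all 7 pigs, with 0.51 ± 0.13, under 1.5-fold. In the list of channels and pumps, with 20 measured, 1 gene was called higher and 1, SLC26A3, lower, against 0.938% and 0.285% of all measured genes. The adrenergic receptor ADRA2B had a log2 fold change of 0.76 ± 0.29, with 3 Sd arrays at the floor.

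KLF10, an early growth-response factor induced by TGF-beta, was higher in 6 of 7 pigs, by 0.52 to 1.02, and -0.061 in pig 2. It had a lowest, median and highest level of 2.36, 2.84 and 3.59 in the Sd segments and 3.0, 3.68 and 4.11 in the onion segments and a log2 fold change of 0.61 ± 0.13. Of its 4 measured probes 3 were called (0.30 to 0.81). Its relative KLF11 had 0.42 ± 0.18. Of the 16 measured immediate early factors KLF10 was the 1 called, where 1.22% of all measured genes were called. The list median was 0.037.

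CLDN6, a claudin of tight junctions, was called at 0.69 ± 0.28, but stood at 2.68 in pig 7 and at 0.36 without that pig. It was at the floor on 2 Sd arrays, and its highest Sd level was -3.53. NDRG2, a stress-linked growth regulator, had a log2 fold change of 0.64 ± 0.17 and was at the floor on 3 Sd arrays. The remaining called genes were TRNP1 with 0.60, FAM213B, a peroxiredoxin-like reductase, with 0.67, and TDRD10 with 0.60.

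**Figure D4:**
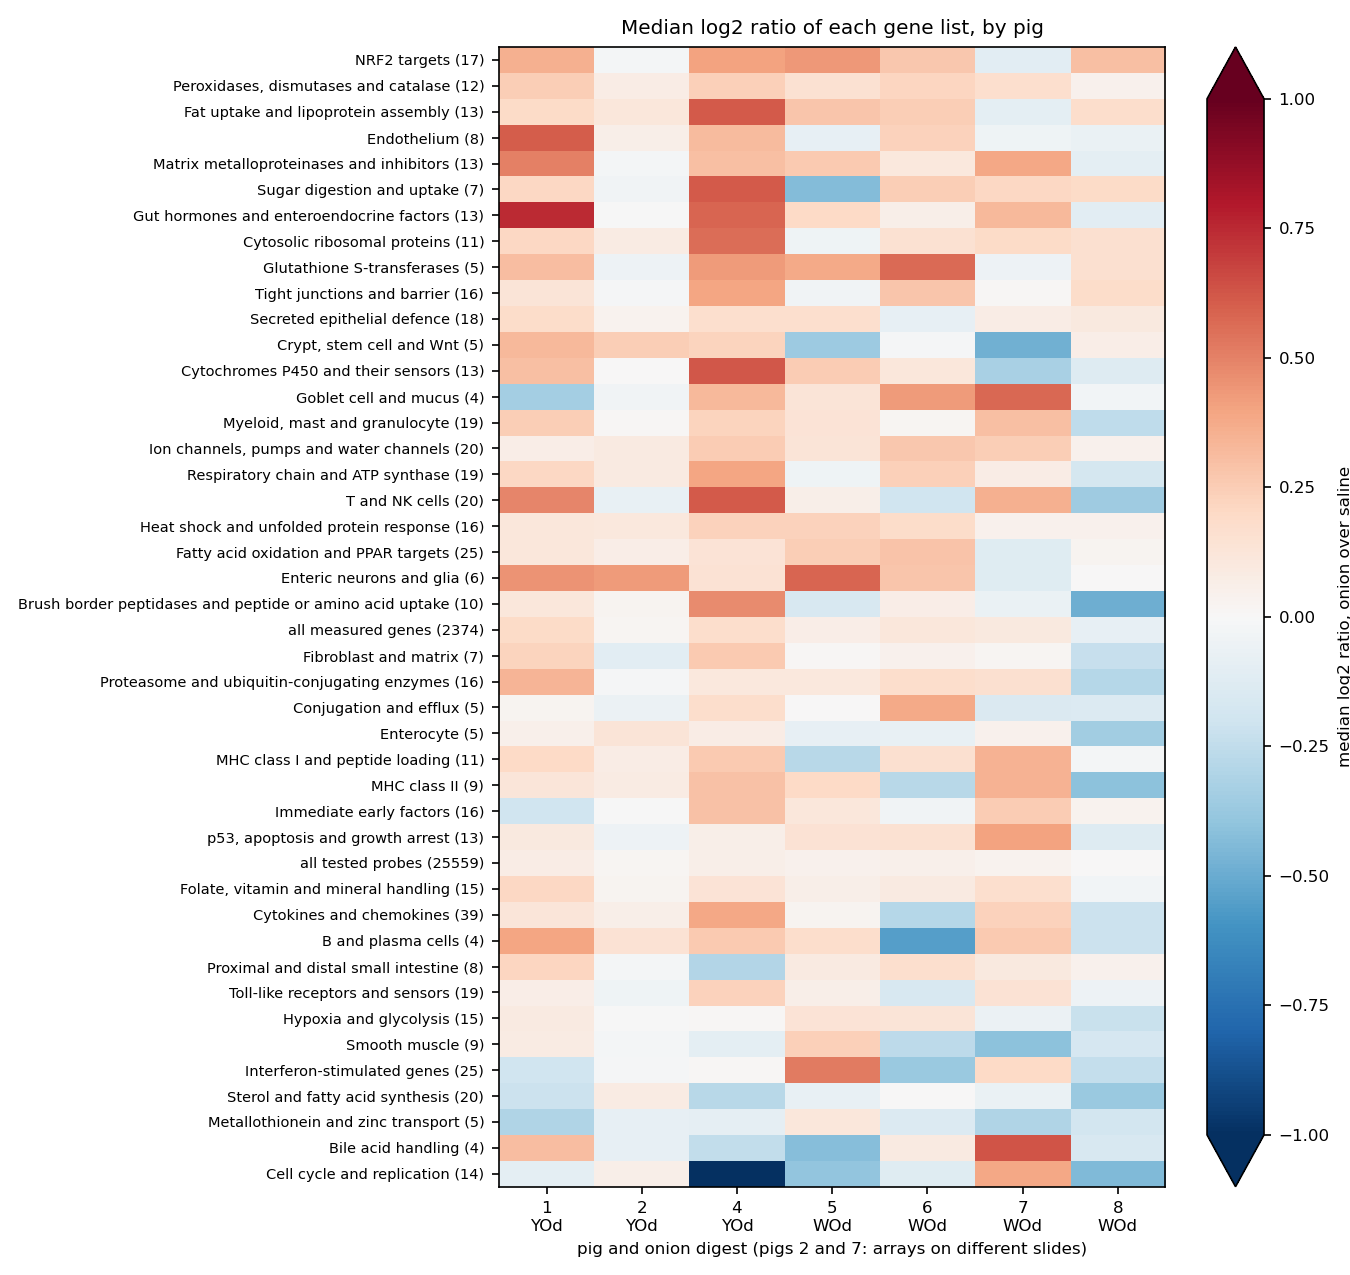
Median log2 ratio of onion over saline digest for each gene list in each pig, with the number of measured members that were not saturated in parentheses (red higher, blue lower with onion). Rows are ordered by the median log2 fold change of those members. The NRF2 row is red in pigs 1, 4, 5, 6 and 8 and the column of pig 2 is pale in most rows, with enteric neurons and glia at 0.42. The row of all measured genes runs from -0.09 in pig 8 to 0.19 in pig 1.

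Proliferation genes had 0 calls among 14 measured over 7 pigs, with a median of -0.24. The list median was -0.095, -1.02, -0.40, -0.12 and -0.44 in pigs 1, 4, 5, 6 and 8 respectively, 0.056 in pig 2 and 0.39 in pig 7. Within the 5 pigs on 1 slide it was -0.41, and 2 members were called lower, against 1.02% of all measured genes. TOP2A, the topoisomerase of dividing cells, had -0.43 ± 0.19 over 7 pigs and was called at -0.70 within those 5. The mitotic kinase CDK1 had -0.34 ± 0.15 over 7 pigs. The heat shock list was led by XBP1, saturated on 5 arrays, with 0.33 ± 0.11 and HSP90B1 with 0.23 ± 0.10, and 0 of 17 were called.

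Immune genes gave 1 call, where 1.22% of all measured genes were called. CCR7, which guides lymphocytes to lymph nodes, had a lowest, median and highest level of -2.11, -1.71 and -0.42 in the Sd segments and -3.39, -2.64 and -1.53 in the onion segments and a log2 fold change of -0.89 ± 0.34. It was lower in every pig but pig 5 (0.58), and without pig 6 its value was -0.55. The other 19 measured genes of the T and NK cell list were not called, and the list median was 0.12. Interferon-stimulated genes had a median of -0.079 over 26 measured and 0 calls. Pigs differed in sign there, with 0.52 in pig 5 and -0.37 in pig 6. Of 39 measured cytokines and chemokines 0 were called. IL6, an inflammatory cytokine, had 0.47 ± 0.19 and was at the floor on 6 arrays. CXCL11, an interferon-induced chemokine, had -0.56 ± 0.25.

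Markers of the cells in the scrapings were read for every list. Of 12 measured enterocyte genes 7 were saturated on all arrays (FABP2, ANPEP, APOA1, APOA4, SLC5A1, RBP2 and GUCA2A), which fits the labelled tissue, and the rest had a median of 0.07. Smooth muscle genes had a median of -0.089 over 9 measured, from -0.41 in pig 7 to 0.24 in pig 5, with 0 calls. Goblet cell, crypt, B cell, myeloid, fibroblast and endothelial lists had 0 calls each, with medians between 0.0023 and 0.20. No blood gene was measured.

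The remaining lists, given by their median log2 fold change and the log2 fold change of single members, had 0 to 2 calls each. Peptide and amino acid genes had a median of 0.11 over 13 measured and 0 calls, with the peptidase XPNPEP2 at -0.77 ± 0.41. Sugar uptake genes had a median of 0.19 over 8 measured and 0 calls, with G6PC, the glucose-6-phosphatase, at 0.57 ± 0.27. Fatty acid oxidation genes had a median of 0.10 over 25 measured and 0 calls, with the coactivator PPARGC1A at -0.39 ± 0.13 and ABHD5, a lipase partner, at 0.49 ± 0.17.

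Bile acid genes had a median of -0.20 over 4 measured and 0 calls, and of 0.18 without pig 6. Glycolysis and hypoxia genes had a median of 0.013 over 17 measured and 0 calls, with the enolase ENO3 at 0.43 ± 0.13 and the aldolase ALDOC at -0.28 ± 0.10. Tight junction genes had a median of 0.16 over 16 measured, with CLDN6 called higher, against 0.938% of all measured genes. CLDN3, saturated on 12 of 14 arrays, had 0.24 ± 0.12. Apoptosis and growth arrest genes had a median of 0.055 over 14 measured and 0 calls, with cytochrome c, CYCS, at 0.25 ± 0.12. MHC class I genes had a median of 0.13 over 15 measured and MHC class II genes one of 0.045 over 9 measured, with 0 calls. Toll-like receptors and sensors had a median of -0.024 over 19 measured and 0 calls, with TLR9 at -0.40 ± 0.20.

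Respiratory chain genes had a median of 0.14 over 22 measured and 0 calls, with NDUFA4, saturated on 3 arrays, at 0.30 ± 0.12. Proteasome genes had a median of 0.068 over 16 measured and 0 calls. The list of proximal and distal genes, which holds some of the markers above, had a median of -0.0091 over 8 measured. It had 2 higher calls, against 0.938% of all measured genes. Of the clock list only ARNTL was measured, at -0.032 ± 0.12. All 35 measured ribosomal protein genes were above 0, with a median of 0.15. Of them 24 were saturated on all arrays, and these follow the scaling of the arrays. The 11 not saturated had a median of 0.17, and its cause was not tested. Of the enteric neuron and glia list, with a median of 0.08 over 6 measured, ADRA2B was called higher, against 0.938% of all measured genes. The part of cell makeup in the results was not tested.

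The onions were pooled, so the difference of their effects was tested for the genes named. The YOd effect less the WOd effect passed the same thresholds in 89 of 2453 genes (3.63%) by limma, and 0 probes passed the Benjamini-Hochberg adjustment. Among the 30 called genes 0 passed. For AKR1C1 the mean ratio was 1.43 in the YOd pigs and 1.65 in the WOd pigs, with a difference of -0.22 (standard error 1.26). With 3 pigs against 4, differences of that size are within the spread between pigs, and equal effects are not shown.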

How the data were processed

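Mucosal RNA of 14 segments of 7 pigs was labelled with Cy3 and hybridised to 14 custom pig arrays. The authors deposited scanner files of Feature Extraction 10.7.3.1 with the processed signal intensity and background intensity of each spot, and a table of log2 values for 28369 probes. Per the labels the processing used RMA, and what these log2 values were centred on could not be settled. From the processed signal, outlier spots were left out (5 to 462 per array), spots of a probe averaged, each array divided by its 75th percentile and values floored at the pooled 40th percentile (log2 -4.43). Probes were named through their accession and RefSeq (Sscrofa11.1), which gave 6686 of 43603 probes a symbol and 3020 genes. The probe of highest mean stood for a gene. Probes above the floor on at least 7 arrays were fitted in limma 3.58.1 under R 4.3.3, blocking on pig. Same-pig arrays deviated together (r = 0.303 to 0.753), so pigs were taken as pairs.

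Genes were named by a rule: the 12 largest increases and decreases called with 1 sign in at least 6 pigs, every called member of 44 lists, and of each list the 2 members of smallest p. Genes outside it were chosen after their values were seen, and some that it gives are left out here. The members and lists were chosen with earlier results of these data known. Fits were tested on simulated data. The number of arrays limits the precision. Alternatives were normalization, background, floor, filter, outlier spots, the authors' values, block, slide, saturated probes and each pig left out.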

Additional observations from a re-analysis of the deposited data

Results flagged for a closer look

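The ratios of the named genes and list medians over 7 pigs were checked for 1 pig far from the rest, a check that chance alone trips in about 1 of 20 cases. It was made 157 times, so several of the values below would be flagged by chance alone. Pig 7 stood apart with -1.83 in EPHX1, -1.65 in NQO1, -0.66 in GCLM and 2.68 in CLDN6. Pig 4 stood apart with 1.37 in HMOX1, 2.99 in APOM and 0.61 in PSMB10. It also did so with 0.56 in the median of the ribosomal protein genes not saturated on all arrays. The saturated probes show 0.63 in that pig. Pig 6 stood apart with -4.18 in the B cell gene CD79A and pig 8 with -1.40 in ADRA2A. The causes were not tested.

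The YOd effect less the WOd effect passed the thresholds, by a limma interaction term, in 2 of the 113 named genes, neither of them called over 7 pigs. Of all measured genes 3.63% passed them, so the 2 genes are no more than that share. For GPX2 the difference was -0.88 (limma adjusted p = 0.702), with a mean ratio of -0.21 in the YOd pigs and 0.67 in the WOd pigs. For KLF11 it was 0.76 (limma adjusted p = 0.695), with 0.86 and 0.10.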

How the results depend on the processing

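The count of 223 called probes was 65 with normexp, 127 with probes above the floor on all 14 arrays, 137 without a filter on dim probes, 70 with the authors' processed log2 values, 30 with 1 probe a gene and 105 in a fit with no replicate block, that is without pairing by pig. It was 557 with the slide as a block, which drops pigs 2 and 7. Leaving out 1 pig gave 181 (without pig 1) to 355 (without pig 7). Without a floor it was 334, with quantile normalization 178, and with saturated probes left out, an alternative chosen after seeing the data, 223. The split moved to 35 higher and 185 lower without scaling, 32 and 33 with normexp, and 33 and 37 with the authors' values. For the YOd less the WOd effect the count, 1665 probes, ranged from 788 (without pig 1) to 2464 (without pig 2), and was 876 without pig 4.

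Of the 30 called genes, 6 (MLN, PDX1, KCNJ5, SLC46A1, SLPI and PI3) were called with each pig left out. Without pig 1, 18 of the 30 lost the call, without pig 5, 16, without pig 4, 14, without pig 6, 10, without pig 8, 7, without pig 7, 4, and without pig 2, 2. Called were 23 with quantile normalization, 12 without scaling, 27 without a floor, 15 with the authors' values, 10 without the block and 27 with the slide block. Of 113 named genes 9 values turned sign: ADRA2A (-0.0033, slide block), ARNTL (-0.096 to 0.020 over omissions of 1 pig, above 0 without pig 8), CD79A (-0.60 to 0.16) and SULT1A3 (-0.44 to 0.035), both above 0 without pig 6, GCLM (-0.31) and MYLK (0.60) with the authors' values, MUC13 with quantile normalization (-0.022) and without scaling (-0.0073), and SLA-DQB1 without scaling (-0.044). Of 44 list medians 21 turned sign without scaling and 4 with quantile normalization, but not those of the NRF2, sterol or gut hormone lists. Leaving out 1 pig moved 35 of the 44 by over 1.5 times, the sterol list among them and the NRF2 (0.18 to 0.30) and gut hormone (0.12 to 0.26) lists not, and turned 7: B and plasma cells (-0.076 to 0.16), Bile acid handling (-0.34 to 0.18), Cytokines and chemokines (-0.0011 to 0.13), Hypoxia and glycolysis (-0.041 to 0.052), MHC class II (-0.023 to 0.14), Proximal and distal small intestine (-0.087 to 0.015) and Toll-like receptors and sensors (-0.060 to 0.045). The causes were not tested.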
